A study of Rattus norvegicus with 6 samples.

Results

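Glycogen is the liver's store of glucose, a branched polymer that is built after a meal and broken down between meals. Phosphoglucomutase and UDP-glucose pyrophosphorylase supply UDP-glucose, glycogen synthase extends the chains, and the branching enzyme adds the side chains that make the particle compact and soluble. Glycogen phosphorylase releases glucose-1-phosphate. It is switched on by phosphorylase kinase, and protein phosphatase 1 (PP1), held on the particle by targeting subunits, switches it off and switches the synthase on. The mRNAs of 9 genes of this system were followed: Gbe1, Gys2, Ugp2, Pgm1, Pygl, Phka2, Phkg2, Ppp1r3b and Ppp1r3c. They were found by gene name among the 32930 gene rows of the deposited table, and each name had 1 row. The set was chosen by the lower counts of Gbe1 in the treated livers of these same libraries, so the change of Gbe1 is described without a test. The other 8 were listed by function, and the question is whether they share that change.

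The HFD group had 3 animals on a high-fat diet given the vehicle, 0.5% CMC-Na (sodium carboxymethyl cellulose). The HTG group had 3 animals on the same diet given HTG, the Huazhuo Tiaozhi granule, a preparation of several medicinal herbs. The labels give 12 weeks of intervention and no dose, sex, age or strain, and they write the HTG treatment once as HCG. The labels say rat, the study's RNA sequencing methods say C57BL/6 J mouse, and the gene identifiers are those of mouse Ensembl. The genes are therefore taken as mouse genes, and the build behind their coordinates is not settled. Estimated counts summed to between 50648778 and 90563477 per library. CPM (counts scaled to each library's total after TMM correction in edgeR) are used between libraries, and FPKM, which also divides by transcript length, is used between genes. Of all genes, 18455 passed the expression filter, including all 9 members. Hepatocyte markers were abundant in every library, with 8 of 8 detected and a summed level of 80710 to 98220 CPM in HFD and 80640 to 85060 CPM in HTG libraries. In this list Cps1 and Tat were lower and Apoa1 was higher in HTG at an unadjusted p under 0.05 in edgeR. Of the other marker lists, Adgre1, Reln, Epcam and Alas2 were lower and Des and Sox9 were higher at this threshold. Of all genes tested, 12.4% were called lower and 12.3% higher. Alb made up most of the hepatocyte sum. By CPM, 4 of the 8 hepatocyte markers were lower without overlap and 1 was higher without overlap, against 15.5% and 16.5% of all genes. All 6 Kupffer cell markers had fitted values below 0, as did 48.4% of all genes tested, and 2 of the 6 were lower without overlap. Their log2 fold changes ran from -1.53 to -0.08. Summed markers of Kupffer, stellate and sinusoidal endothelial cells, leukocytes, red cells and skeletal muscle overlapped between the groups, and 4 of 5 muscle markers were at the limit of an empty gene. Cholangiocyte markers summed to 8.41 to 10.2 CPM in HFD and 10.7 to 10.9 CPM in HTG libraries, and their part in the results was not tested. In whole liver, fewer cells of a type and less RNA per cell cannot be told apart.

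Gbe1 (ENSMUSG00000022707, chromosome 16, 70110837 to 70366604, plus strand) encodes the glycogen branching enzyme, whose inherited loss causes a glycogen storage disease with long, poorly branched chains. Its counts were 6563, 7266 and 11458 in HFD libraries 1, 2 and 3, against 2513, 2143 and 1372 in the HTG libraries. Scaled between libraries, these were 96.3, 109 and 160 CPM in HFD and 32.3, 21.9 and 29.3 CPM in HTG. The lowest HFD library thus lay well above the highest HTG library, and HFD library 3 was the highest of all. The group means were 122 ± 33.4 and 27.8 ± 5.32 CPM (SD, n = 3 per group). The fitted change was -2.13 on the log2 scale, with a standard error of 0.25, or a ratio of 0.229. As FPKM the means were 22.0 ± 6.57 and 4.84 ± 0.743 (SD, n = 3 per group). A fitted change as low as this or lower was found in 235 of the genes tested. It stayed between -2.29 and -1.89 when each library was left out in turn.

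**Figure D1:**
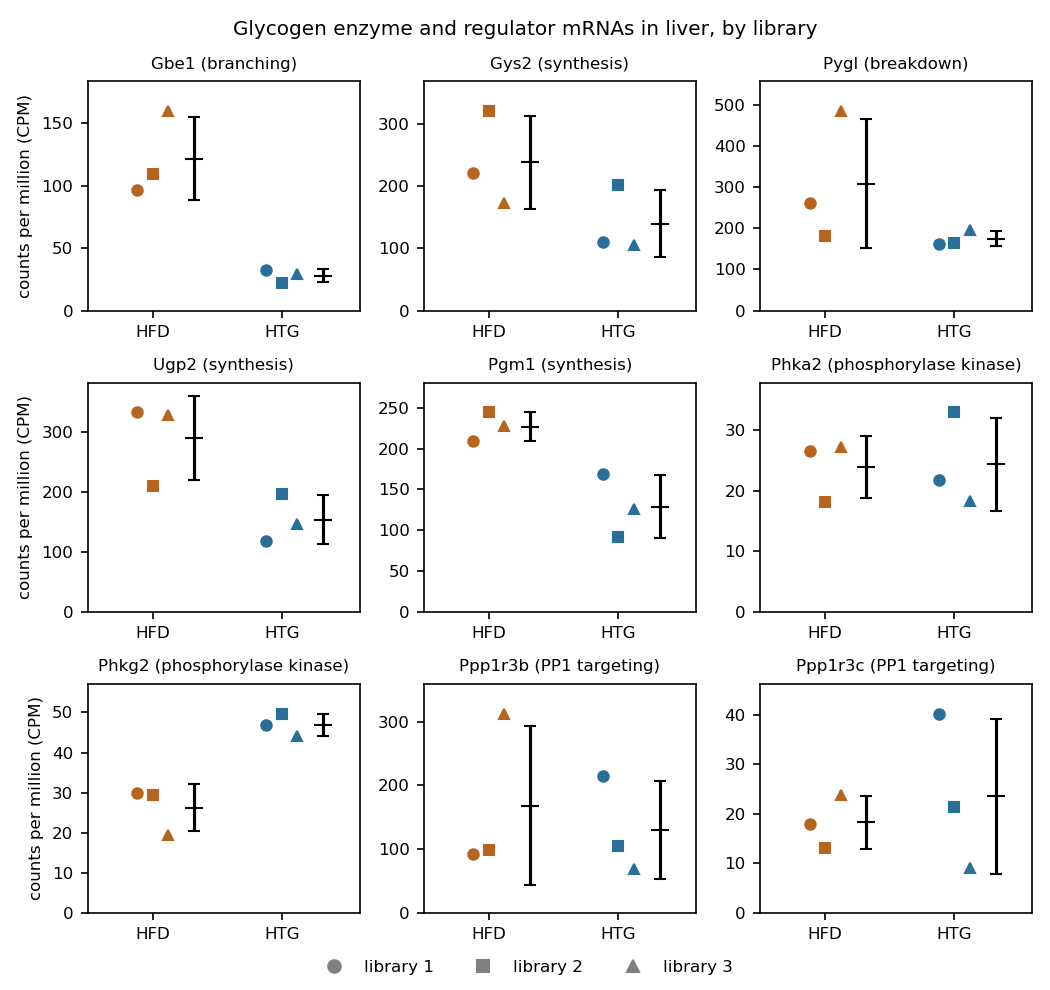
Level of each of the 9 glycogen genes in every library, in CPM (vertical axis from 0), for HFD (brown) and HTG (blue); symbols give the library number and black bars the mean ± SD of 3 libraries. By CPM, Gbe1, Ugp2 and Pgm1 are lower in all HTG libraries than in any HFD library, Phkg2 is higher, and the other 5 genes overlap between the groups; by FPKM, Ugp2 overlaps too.

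Among the other 8 genes, the mRNAs that encode the enzymes handling glucose units were lower in HTG livers by less than Gbe1, and no regulator mRNA was called lower. At an unadjusted p under 0.05 in edgeR's quasi-likelihood test, Gys2, Ugp2, Pgm1 and Pygl were lower, where 12.4% of all genes tested were called lower. Phkg2 was higher, where 12.3% of all genes were called higher. Phka2, Ppp1r3b and Ppp1r3c did not pass. None of the other 8 genes passed an adjusted p of 0.05 in edgeR or in limma on FPKM. In edgeR 0.0108% of all genes passed it. Of these 8, DESeq2 put Ugp2, Pgm1 and Phkg2 under this threshold, together with 13% of all genes. The median log2 fold change of the 8 was -0.57, against 0.03 over all genes tested. It was -0.11 without HFD library 3. By CPM, the groups did not overlap for Ugp2 and Pgm1 among lower genes and Phkg2 among higher genes, against 15.5% and 16.5% of all genes. By FPKM, Ugp2 overlapped between the groups.

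Ugp2 (chromosome 11, 21271138 to 21321201) encodes UDP-glucose pyrophosphorylase, which makes the sugar donor of the synthase. It had 332, 209 and 328 CPM in HFD libraries 1, 2 and 3 and 117, 197 and 146 CPM in the HTG libraries. By CPM all HTG libraries lay below all HFD libraries, with HFD library 2 and HTG library 2 close. By FPKM their order turned, with 61.5 in HFD library 2 and 64.8 in HTG library 2, so the groups overlapped. The log2 fold change was -0.92 (standard error 0.27), with an unadjusted p of 0.0092 and an adjusted p of 0.0948 in edgeR's quasi-likelihood test. Pgm1 (chromosome 4, 99786611 to 99844491) encodes the phosphoglucomutase that interconverts glucose-1-phosphate and glucose-6-phosphate, a step used in both directions. Its HFD libraries were close together at 209, 244 and 228 CPM, and its HTG libraries had 168, 91.6 and 126 CPM. No HTG library reached the HFD range, and edgeR put the change at -0.82 on the log2 scale (standard error 0.25, adjusted p = 0.0963 in edgeR). Both genes kept an unadjusted p under 0.05 in all 16 alternative fits.

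Gys2 (chromosome 6, 142368339 to 142418835), the liver glycogen synthase, had 222, 320 and 173 CPM in HFD libraries 1, 2 and 3 and 111, 202 and 106 CPM in the HTG libraries. HTG library 2 lay within the HFD range, above HFD library 3. The log2 fold change was -0.77 (standard error 0.33), with an unadjusted p of 0.0445 and an adjusted p of 0.191 in edgeR. The unadjusted p was over 0.05 with upper-quartile scaling and without HFD library 1, HFD library 2, HTG library 1 or HTG library 3, where the log2 fold change ran from -0.82 to -0.50. Pygl (chromosome 12, 70237585 to 70278262), the liver phosphorylase, which catalyses the rate-limiting step of breakdown, had 261, 181 and 484 CPM in the HFD and 163, 164 and 196 CPM in the HTG libraries. HFD library 3 was far above the other HFD libraries, and HFD library 2 lay inside the HTG range. edgeR's estimate was -0.82 on the log2 scale (standard error 0.34, unadjusted p = 0.0422, adjusted p = 0.185 in edgeR). It was -0.34 without HFD library 3, and the unadjusted p was over 0.05 in 9 of 16 alternative fits, among them each fit that left out 1 library other than HFD library 2. In the other 8 of these fits the change stayed between -0.93 and -0.73.

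Phosphorylase kinase holds regulatory alpha and beta subunits, calmodulin as its delta subunit, and a catalytic gamma subunit. Phkg2 (chromosome 7, 127172512 to 127182477) encodes the gamma subunit of the liver form and went against the enzymes. It had 29.9, 29.4 and 19.4 CPM in HFD libraries 1, 2 and 3 and 46.8, 49.7 and 44.0 CPM in the HTG libraries. Every HTG library was above every HFD library, with a log2 fold change of 0.84 (standard error 0.20, unadjusted p = 0.00284, adjusted p = 0.0641 in edgeR). The direction and the unadjusted call held in all 16 alternative fits. Phkg2 overlaps Ccdc189 on the opposite strand by 923 bases, so shared reads cannot be told apart if strand was not used in counting. Ccdc189 had 56 to 207 counts in HFD and 208 to 332 in HTG libraries. Phkg2 had 1395 to 2034 counts in HFD and 2062 to 4860 in HTG libraries. The part of shared reads was not tested. Phka2, the alpha subunit of the liver form, had 26.5, 18.1 and 27.2 CPM in HFD and 21.7, 32.9 and 18.3 CPM in HTG libraries. The ranges overlapped throughout, with a log2 fold change of 0.02 (standard error 0.26, adjusted p = 0.969 in edgeR).

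The targeting subunits of PP1 varied more within the groups than between them. Ppp1r3b, the hepatic targeting subunit GL, had 93.0, 99.2 and 313 CPM in HFD libraries 1, 2 and 3 and 215, 105 and 67.9 CPM in the HTG libraries. HFD library 3 and HTG library 1 stood above the rest, and edgeR put the change at -0.38 on the log2 scale (standard error 0.56, adjusted p = 0.711 in edgeR). It was 0.43 without HFD library 3. Ppp1r3c, which encodes the subunit called PTG, protein targeting to glycogen, had 18.0, 13.0 and 23.7 CPM in HFD and 40.2, 21.3 and 9.07 CPM in HTG libraries. The highest and the lowest values were both in HTG livers. The change was 0.37 on the log2 scale (standard error 0.47, adjusted p = 0.664 in edgeR), and -0.30 without HTG library 1.

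Levels per length show how the makeup of the pathway differed. In HFD livers the order by mean FPKM was Ugp2 (92.1 ± 26.5), Gys2 (85.7 ± 22.3), Pgm1 (74.9 ± 2.84), Pygl (43.8 ± 23.6), Ppp1r3b (26.5 ± 20.4), Gbe1 (22.0 ± 6.57), Ppp1r3c (6.53 ± 2.17), Phkg2 (6.30 ± 1.37) and Phka2 (3.84 ± 0.994; SD, n = 3 for each). Neighbours in this order overlapped except Pgm1 with Pygl, Gbe1 with Ppp1r3c, and Phkg2 with Phka2. In HTG livers the same enzymes led, with Gys2 at 50.2 ± 23.1, Ugp2 at 47.3 ± 15.5, Pgm1 at 41.0 ± 11.5 and Pygl at 23.6 ± 1.44 FPKM (SD, n = 3 for each). They were followed by Ppp1r3b at 19.7 ± 11.6 FPKM (SD, n = 3). Phkg2 (11.01 ± 1.497) then stood above Gbe1 (4.84 ± 0.743), whose FPKM overlapped those of Ppp1r3c (8.18 ± 5.45) and Phka2 (3.81 ± 1.49; SD, n = 3 for each). Gbe1 was thus the sixth of the 9 genes in HFD livers and the eighth in HTG livers.

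The ratio of Gbe1 to another gene within a library does not depend on scaling between libraries. For all 8 genes, the FPKM ratio was lower in every HTG library than in any HFD library, a description only, since Gbe1 was chosen for its decrease. The log2 ratio of Gbe1 to the synthase gene Gys2 was -2.21, -2.57 and -1.13 in HFD libraries 1, 2 and 3 and -2.79, -4.21 and -2.87 in the HTG libraries. The gap between the nearest libraries was small for Gys2 and for Ugp2 (HFD -2.59, HTG -2.66). For Pgm1 the nearest values were -2.04 and -2.94. The mean log2 ratio to Pgm1 was -1.81 ± 0.36 in HFD and -3.06 ± 0.18 in HTG (SD, n = 3 per group). In these libraries Gbe1 was lower also relative to the enzymes that were themselves lower, narrowly for Gys2 and Ugp2. Choosing Gbe1 for its decrease favours such ratios, so they cannot test whether its change is separate from theirs.

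**Figure D2:**
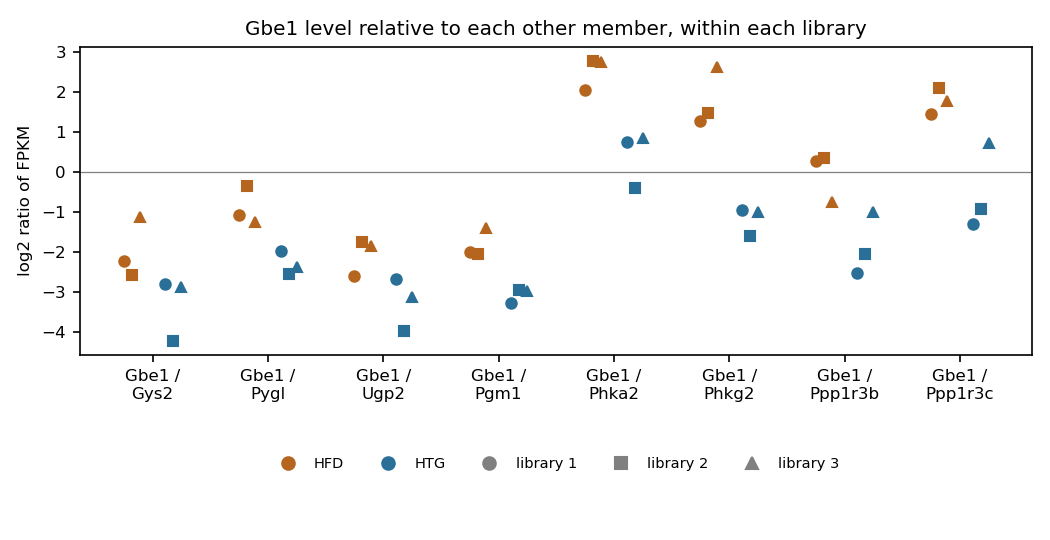
Log2 ratio of the FPKM of Gbe1 to that of each other gene, within each of the 3 HFD (brown) and 3 HTG (blue) libraries; symbols give the library number. For every partner the HTG points lie below the HFD points, narrowly for Ugp2 (-2.66 against -2.59) and widely for Phkg2 (-0.96 against 1.27).

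The remaining machinery of glycogen was read from a list of 34 further genes, of which 33 were tested. At an unadjusted p under 0.05 in edgeR, 12 of them were lower and 1 was higher, where 12.4% and 12.3% of all genes were called. The count of lower genes was 7 without HTG library 2 and 8 without HTG library 3, where 8.09% and 8.7% of all genes were called lower. The count of higher genes was 3 without HFD library 3, where 10.4% of all genes were called higher. None passed an adjusted p of 0.05 in edgeR or in limma on FPKM, and DESeq2 put 7 under it together with 13% of all genes. The median log2 fold change was -0.52, against 0.03 over all genes tested. By CPM, the groups did not overlap for 9 lower genes and 1 higher gene, against 15.5% and 16.5% of all genes.

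Gyg, encoding the primer protein glycogenin that starts the particle, had 6.48 ± 1.96 CPM in HFD and 4.06 ± 0.888 CPM in HTG (SD, n = 3 per group). It did not pass (log2 fold change -0.67, adjusted p = 0.203 in edgeR). Gaa, the lysosomal acid glucosidase, had a log2 fold change of -0.52 (unadjusted p = 0.0591 in edgeR).

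The isoenzymes of other tissues were scarce. Per length, the muscle-type synthase Gys1 had 0.890 ± 0.204 FPKM in HFD and 1.12 ± 0.209 in HTG (SD, n = 3 per group), and the brain-type phosphorylase Pygb had 1.28 ± 0.455 and 0.667 ± 0.178 (SD, n = 3 per group). Pygb was lower at the unadjusted threshold (log2 fold change -0.87, adjusted p = 0.169 in edgeR), with overlapping groups. The muscle phosphorylase Pygm, at 0.237 and 0.233 FPKM, and the phosphoglucomutase Pgm2, with a log2 fold change of 0.32, did not pass. Liver forms thus made up most of the synthase and phosphorylase mRNA in both groups.

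Among the regulators, Ppp1cb, a catalytic subunit of PP1, had 57.0, 72.3 and 57.1 CPM in HFD libraries 1, 2 and 3 and 37.9, 23.4 and 28.0 CPM in the HTG libraries. Its log2 fold change of -1.06 (standard error 0.22) had the smallest adjusted p of this list, 0.0585 in edgeR. Ppp1ca, another catalytic subunit, was lower too (-0.69), and Ppp1cc did not pass (-0.33, unadjusted p = 0.113 in edgeR). PP1 catalytic subunits serve many substrates besides glycogen enzymes. Stbd1, which binds glycogen and is linked to its transport to lysosomes, had 80.3, 105 and 52.9 CPM in HFD and 39.2, 34.1 and 33.9 CPM in HTG libraries. The groups did not overlap, and edgeR put the change at -1.15 on the log2 scale (standard error 0.25, adjusted p = 0.0606 in edgeR). The calmodulin genes Calm2 (-0.78) and Calm3 (-0.79) were lower, while Phka1, the alpha subunit of the muscle form of phosphorylase kinase, was higher at 5.93, 6.84 and 6.53 CPM in HFD and 8.60, 11.7 and 11.3 CPM in HTG libraries (log2 fold change 0.71, adjusted p = 0.0897 in edgeR). Ppp1r3g, a further PP1 targeting subunit named after its values were seen, had counts of 1, 732 and 23 in HFD and 18, 26 and 4 in HTG libraries. Its call as lower thus rested on HFD library 2 alone.

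Of the 9 genes that move glucose in and out of glucose-6-phosphate, 5 were lower and none was higher at the unadjusted threshold in edgeR, where 12.4% and 12.3% of all genes were called. Slc37a4, which carries glucose-6-phosphate into the endoplasmic reticulum, had 189, 134 and 248 CPM in HFD libraries 1, 2 and 3 and 91.2, 90.6 and 92.3 CPM in the HTG libraries. The HTG libraries were nearly equal and below every HFD library (log2 fold change -1.06, standard error 0.24, adjusted p = 0.0613 in edgeR). Hk2, a hexokinase (-0.70), and Gpi1, glucose-6-phosphate isomerase (-0.56), were also lower without overlap. G6pc, the catalytic subunit of glucose-6-phosphatase, had a log2 fold change of -1.84 (standard error 0.72), and its HFD libraries ran from 70.8 to 354 CPM and its HTG libraries from 18.9 to 119 CPM. The glucose transporter gene Slc2a2, named after its values were seen, was lower with overlap (-0.97).

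**Figure D3:**
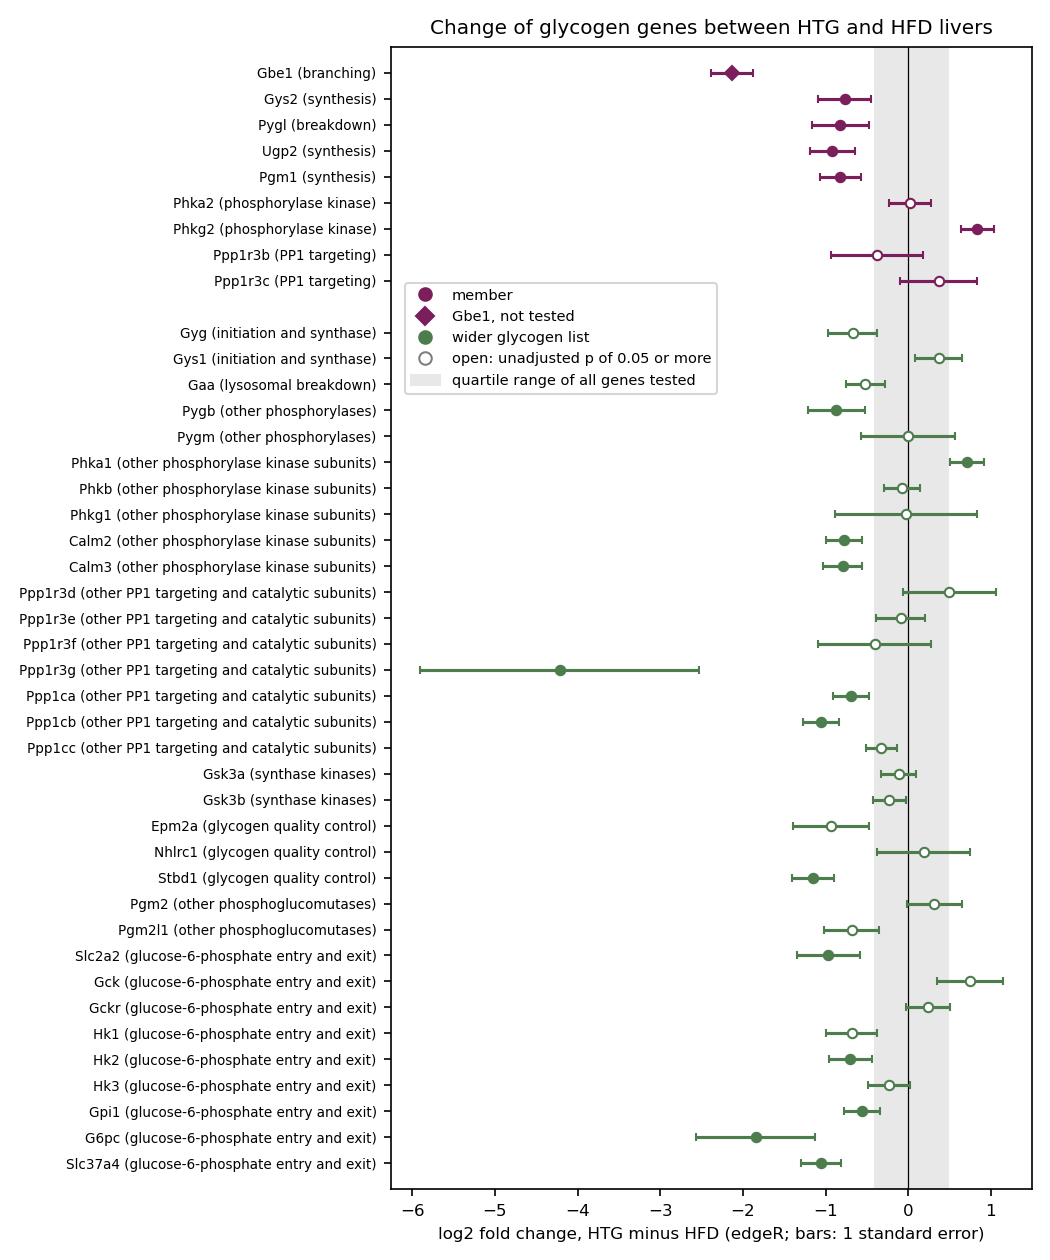
Log2 fold change of HTG over HFD for the 9 glycogen genes (purple) and the 33 further genes tested (green), from edgeR, with bars of 1 standard error; open symbols had an unadjusted p of 0.05 or more, the diamond marks Gbe1, which was not tested, and the grey band runs from the lower to the upper quartile of all genes tested. Gbe1 (-2.13) lies apart from Gys2, Pygl, Ugp2 and Pgm1 (-0.92 to -0.77), and Phkg2 (0.84) and Phka1 (0.71) lie on the other side, while Ppp1r3g (-4.22) rests on 1 HFD library.

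The genes closest to Gbe1 over the 6 libraries, among 11367 others with a mean of at least 200 counts, were Vdac1 (Pearson r of log2 CPM = 0.999), Usp12 (0.999), Ncoa4-ps (0.998), Ctnnb1 (0.997) and Virma (0.994). These r values mostly reflect the gap between the groups, which Gbe1 was chosen for. Vdac1, a channel of the outer mitochondrial membrane, went from 184 ± 31.9 to 82.3 ± 8.89 CPM, and Ctnnb1, beta-catenin, from 159 ± 14.6 to 91.4 ± 7.56 CPM (SD, n = 3 per group). Ncoa4-ps is a pseudogene that can share reads with its parent gene. Of the glycogen genes, Pgm1 had the highest r with Gbe1, 0.908, at rank 794. Phkg2 had an r of -0.966, and Phka2 (-0.07) and Ppp1r3c (-0.04) had almost none.

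Feeding state and time of day are known to set the mRNAs of liver glycogen genes, and the libraries differed in markers of both within the groups. The 6 feeding-induced genes summed to 18590 CPM in HFD library 3 and to 3124 and 980 CPM in HFD libraries 1 and 2, against 1412 to 4112 CPM in HTG libraries. HFD library 3 was also the highest library for Gbe1, Pygl and Ppp1r3b, and it was the lowest HFD library for Gys2 and Phkg2. The 7 fasting-induced genes summed to 5056, 6758 and 3021 CPM in HFD libraries 1, 2 and 3 and to 3649, 2649 and 3399 CPM in the HTG libraries. None of these 6 and 7 genes passed an unadjusted p of 0.05 between the groups in edgeR. The fitted values were below 0 for 5 of the 6 feeding-induced genes, with a median log2 fold change of -1.32 over the 6. They were below 0 for all 7 fasting-induced genes, with a median of -0.67, and for 48.4% of all genes tested. Each of the 5 feeding-induced genes was highest in HFD library 3, on which their values leaned. Fasn, named after its values were seen, had 144, 62.2 and 3131 CPM in HFD and 127, 325 and 534 CPM in HTG libraries. The 14 clock genes summed to 549 to 762 CPM in HFD libraries and to 461, 1239 and 787 CPM in HTG libraries 1, 2 and 3. This sum hides opposite differences between single clock genes, 2 of which are named here after their values were seen. Dbp had 144, 29.4 and 28.3 CPM in HFD libraries 1, 2 and 3 and 5.83, 274.5 and 116 CPM in the HTG libraries. Arntl had 0.969, 7.54 and 4.94 CPM in HFD and 12.5, 0.890 and 1.30 CPM in HTG libraries. HTG library 2, the highest by the sum, was also the highest HTG library for Gys2, Ugp2, Phka2 and Phkg2, and it was the lowest for Gbe1 and Pgm1. Among the clock genes only Per1 passed, with 52.5, 72.4 and 49.1 CPM in HFD and 42.5, 45.3 and 29.2 CPM in HTG libraries (log2 fold change -0.57, adjusted p = 0.174 in edgeR). The part of feeding state and time of day in the glycogen genes was not tested.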

How the data were processed

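Liver RNA of 3 HFD and 3 HTG animals was compared, grouped by the sample titles. The authors deposited whole-number estimated counts, not normalised, and FPKM values for every gene and library. The submitters' processing notes list HISAT2, StringTie, SAMtools and the build mRatBN7.2 without roles, and filters and strand use in counting are not given in the sources used here. Values of 4 occurred 6450 times against 2549 for 3 and 1757 for 5, so 1 fragment was read as about 4 counts. This puts the depth at 12662194 to 22640869 fragments in each library. An empty gene was allowed 3 fragments, or 12 counts, for counting error only.

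Counts were fitted with edgeR 4.0.16 (TMM, filterByExpr, glmQLFit and glmQLFTest) in R 4.3.3, modelling the group alone, and p-values were adjusted over all 18455 genes tested by the Benjamini-Hochberg method. Standard errors are the log2 fold change divided by the square root of the F statistic. CPM are counts scaled to the TMM-adjusted library total. Alternatives were DESeq2 1.42.0, its size factors, upper-quartile scaling, other count filters, counts divided by 4, a block for replicate number, leaving out each library, and limma 3.58.1 on log2(FPKM + 0.1) or log2(FPKM + 1). The scripts were tested on simulated data. Nothing says whether the libraries came from separate cages or extractions, so p-values measure the spread between these samples.

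The members and all lists were chosen with earlier results of these data known. The rule for named genes took the 9 members, a fixed set of isoenzymes and enzymes of a wider list of 34 glycogen genes, up to 10 further genes of it with the smallest unadjusted p under 0.05, up to 3 such genes in each list of fasting-induced, feeding-induced and clock genes, and the 5 genes closest to Gbe1 over the libraries. Genes named outside it are marked, and some further glycogen genes are not reported here and not counted in that list. RefSeq promoter sequences supplied for rat were not used here, because the rows are mouse genes.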

Additional observations from a re-analysis of the deposited data

How the results depend on the processing

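Gbe1 stayed between -2.29 and -1.89 over the 16 alternatives, and Ugp2, Pgm1 and Phkg2 kept their direction and an unadjusted p under 0.05 in each. At an adjusted p under 0.05, the number of the other 8 genes called, 0 in edgeR, was 3 in DESeq2, 1 with at least 10 counts in every library, 1 with counts divided by 4, and 0 to 1 with a library left out. For the wider list these numbers were 7, 3, 3 and 0 to 2, and of all genes 13%, 4.43%, 5.44% and 0% to 3.38% were called. At an unadjusted p under 0.05, 2 of the 8 were lower with upper-quartile scaling and 2 to 3 with a library left out, where 11.5% and 8.09% to 14.8% of all genes were called lower. In the wider list 7 to 14 genes were lower and 1 to 3 were higher with a library left out, and 2 were higher without a count filter, where 8.07% to 11% and 8.4% of all genes were called higher. The median of the 8 ran from -0.74 to -0.11 with a library left out. Genes near 0 changed sign: Phka2 was -0.0023 in DESeq2, -0.0022 with its size factors, -0.0033 with the replicate block, -0.04, -0.04 and -0.03 in limma (log2(FPKM + 0.1) with and without a filter, and log2(FPKM + 1)), and -0.26 to 0.19 with a library left out. Ppp1r3b ran from -1.0 to 0.43 and Ppp1r3c from -0.30 to 0.76. Some of these fits held fewer libraries or genes than the main fit. The cause of these changes was not tested.

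The replicate numbers did not pair the samples: deviations of same-numbered libraries correlated with r = -0.078, -0.073 and 0.101 for numbers 1, 2 and 3. With this replicate block, Gbe1 was -2.11, and 4 of the 8 genes were lower and 1 higher at an unadjusted p under 0.05, against 10.5% and 10.4% of all genes. With 3 libraries a group, no single gene can go below p = 0.1 in an exact permutation test. All members had at least 425 counts in every library, so depth set no limit on detecting them, and the spread between libraries limited the comparison.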

Other observations

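Some ratios between the glycogen genes that leave out Gbe1 were formed after the values were seen, and they are given as values. The log2 FPKM ratio of the synthase gene Gys2 to the phosphorylase gene Pygl was 1.14, 2.20 and -0.11 in HFD libraries 1, 2 and 3, against 0.82, 1.67 and 0.49 in the HTG libraries. The HTG values all lay inside the HFD range, so the balance of these mRNAs did not separate the groups. Both genes had fitted changes below 0, with overlapping groups. The ratio of Phkg2 to Phka2, the catalytic and alpha subunit genes of the liver phosphorylase kinase, was 0.77, 1.30 and 0.11 in HFD and 1.71, 1.20 and 1.87 in HTG libraries. HTG library 2, which had the highest Phka2 level, lay inside the HFD range. The ratio of Ppp1r3b to Ppp1r3c was 1.18, 1.74 and 2.53 in HFD and 1.23, 1.12 and 1.72 in HTG libraries. Both PP1 targeting genes were high in HTG library 1 and low in HTG library 3.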
